A study of Mus musculus with 12 samples.

Results

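The RNA of 10 matricellular and interstitial matrix genes was followed in BMEL cells, bipotential mouse embryonic liver lines, able to mature toward hepatocytes or toward biliary cells. The genes were Tnc, Thbs1, Sparc, Fbln2, Tgfbi, Fstl1, Igfbp7, Fn1, Col1a1 and Col3a1, 10 of 12393 genes named on the arrays. They were chosen by their matrix role with earlier results of the same data in view, in which culture changes of Tnc, Fbln2, Igfbp7 and Tgfbi already stood, so the culture changes of these 4 genes are given as descriptions without a p-value. Each gene was read from the probe set with the highest mean log2 intensity over all 12 arrays, and the other 11 of their 21 probe sets served as a check.

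Total RNA was hybridised to 12 one-colour mouse arrays, 2 for each combination of line and culture. The lines 9A1 and 14B3 were isolated independently of each other from CBA/J x C57Bl/6J embryos at day 14 of gestation (dpc), and each is 1 line, so a difference between them is a difference between 2 isolates. Each was grown in basal culture, as aggregates for 5 days, or in Matrigel, a basement membrane gel, for 10 days; replicate 1 of 14B3 in Matrigel is labelled 5 days, and no time is given for basal culture. The labels name no agent and no genetic change in any group. Time in culture differs between aggregates and Matrigel, and its part cannot be told apart from that of the culture form. The submitters call the 2 arrays of a group biological replicates and say no more of how they were kept apart, so p-values measure the spread between these samples, which may be technical.

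Interstitial matrix is built on fibrillar collagens, which assemble together with fibronectin outside the cell and bear load. Matricellular proteins are secreted into the same matrix but are not structural: they bind integrins, growth factors and collagen, and change how cells adhere and respond. In liver the interstitial collagens and several matricellular proteins are classically products of stellate cells and portal fibroblasts, and epithelial cells can make fibronectin and some matricellular proteins.

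The labelled cell type was checked against liver epithelial markers. The keratin gene Krt8 had a log2 intensity between 13.60 and 13.93 and Hnf4a, a transcription factor of hepatocytes, between 11.32 and 12.68, on all arrays. In basal culture other markers of the list read near or below the level of the median gene, namely Epcam (7.49 to 7.94), Alb (7.71 to 8.45), Foxa3 (6.17 to 7.29), Sox9 (7.01 to 8.09) and Prox1 (4.96 to 5.19). Array medians lay between 268 and 281 on the linear scale, and the median gene at a log2 intensity of 8.38 to 8.46. The number of arrays limits the precision. Replicates of the 10 genes differed most in 9A1 aggregates, by a root mean square of 1.22 log2 units against 0.30 over all genes, and in 9A1 in Matrigel, by 0.99 against 0.32; in the other 4 groups the 10 genes differed by 0.27 to 0.40. In 9A1 aggregates replicate 2 was the lower for Igfbp7, Fn1, Sparc and Fstl1 and the higher for Tgfbi (10.35 against 8.97). In 9A1 in Matrigel replicate 1 was the higher for Tnc, Col3a1, Col1a1 and Thbs1. The values without these arrays are given with some of the results they alter. Other sizes moved as well with 1 array left out. In aggregates against basal culture Igfbp7 lay between -2.98 and -1.8 log2 units and Tgfbi between 3.12 and 3.81. In Matrigel against basal culture Tnc lay between 2.31 and 3.12. In Matrigel against aggregates Igfbp7 lay between 1.96 and 3.14, Fn1 between 1.04 and 1.92 and Sparc between 1.07 and 1.8. The spread of a gene was pooled over the 6 groups, and a group left with 1 array adds nothing to it. A comparison can thus pass through a smaller SE alone, even without an array that is not part of it.

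Promoter windows of the mouse build GRCm38.p6, 250 bases before to 50 bases after a gene start in RefSeq, were at hand for 7 of the 10 genes, with 2 starts for Tnc. The genes without a window were Fn1, Thbs1 and Col1a1. The windows below are those of the 5 genes whose group means spanned most, 3.82 to 5.00 log2 units, against at most 2.40 in the other 5. Capitals mark exact matches, on either strand, to 6 short motifs. TATAA was searched as the core of the TATA box and GGGCGG as the GC box. CAGAC was searched as the SMAD element and GGAATG as the site of TEAD factors. The AP-1 site was searched as TGANTCA and the CCAAT box by its own letters. No 2 of these overlapped in the windows shown. The windows are Tnc at chr4:64046887-64047186 on the minus strand, Fbln2 at chr6:91212514-91212813 on the plus strand, Fstl1 at chr16:37776805-37777104 on the plus strand, Igfbp7 at chr5:77407996-77408295 on the minus strand and Tgfbi at chr13:56609336-56609635 on the plus strand.
Tnc: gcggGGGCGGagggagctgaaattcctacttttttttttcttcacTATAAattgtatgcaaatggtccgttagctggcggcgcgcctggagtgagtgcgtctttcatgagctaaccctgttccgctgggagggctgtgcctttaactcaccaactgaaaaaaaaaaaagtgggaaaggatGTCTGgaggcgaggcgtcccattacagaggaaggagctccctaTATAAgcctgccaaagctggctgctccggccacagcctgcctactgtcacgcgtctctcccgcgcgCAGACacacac
Fbln2: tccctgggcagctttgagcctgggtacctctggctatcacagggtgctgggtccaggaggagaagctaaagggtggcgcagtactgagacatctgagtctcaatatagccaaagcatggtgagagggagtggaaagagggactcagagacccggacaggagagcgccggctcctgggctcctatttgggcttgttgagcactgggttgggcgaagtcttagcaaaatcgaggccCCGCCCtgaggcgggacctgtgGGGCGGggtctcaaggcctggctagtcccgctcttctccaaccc
Fstl1: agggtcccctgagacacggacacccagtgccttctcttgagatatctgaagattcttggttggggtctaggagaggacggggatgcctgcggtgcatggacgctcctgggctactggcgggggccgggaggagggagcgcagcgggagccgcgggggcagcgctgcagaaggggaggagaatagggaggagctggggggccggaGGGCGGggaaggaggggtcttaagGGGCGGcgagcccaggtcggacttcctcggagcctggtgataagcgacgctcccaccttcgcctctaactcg
Igfbp7: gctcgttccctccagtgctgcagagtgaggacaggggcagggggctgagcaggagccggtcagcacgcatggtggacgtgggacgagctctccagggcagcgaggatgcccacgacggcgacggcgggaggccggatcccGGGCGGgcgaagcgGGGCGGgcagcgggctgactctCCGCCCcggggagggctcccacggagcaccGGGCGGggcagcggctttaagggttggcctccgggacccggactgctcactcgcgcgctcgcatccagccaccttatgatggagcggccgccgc
Tgfbi: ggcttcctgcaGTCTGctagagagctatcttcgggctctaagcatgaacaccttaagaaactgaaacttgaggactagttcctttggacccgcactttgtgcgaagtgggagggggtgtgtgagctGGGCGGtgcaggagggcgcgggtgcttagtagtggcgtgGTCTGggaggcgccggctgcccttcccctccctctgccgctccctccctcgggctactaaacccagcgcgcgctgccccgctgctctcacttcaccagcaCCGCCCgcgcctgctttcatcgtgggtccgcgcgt

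The Tnc window holds a TATAA whose first base lies at -27 from the start, and has 54.0% G and C. Fbln2, at 60.3%, holds GC boxes at -16 and 7. Igfbp7, at 73.3% G and C, holds 4 GC boxes and no TATAA, and Fstl1, at 66.7%, holds 2 GC boxes and no TATAA. Tgfbi has 2 GC boxes and 2 SMAD elements, the latter at -239 and -85. Over the 8 windows of the 7 genes, 6 held a GC box, 5 a SMAD element, 3 a TATAA and 1 a TEAD site. The 2 windows of Tnc overlap, and the GC box, SMAD element and TATAA in their shared bases count in both. None of the 8 held a CCAAT box or an AP-1 site. Of 32851 mouse windows of the same length, 35.7% held a GC box, 49.6% a SMAD element, 24.9% a TATAA, 14.7% a TEAD site, 37.4% a CCAAT box and 7.81% an AP-1 site. Such matches describe letters in these windows and show no binding.

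Tnc encodes tenascin-C, a large glycoprotein that weakens cell adhesion and is made in developing and healing tissue. Its log2 intensity was 6.87 and 6.76 on the arrays of 9A1 in basal culture and 6.51 and 6.60 for 14B3. In aggregates it was 6.63 and 6.47 for 9A1 and 7.07 and 6.68 for 14B3. In Matrigel it was 11.38 and 9.75 for 9A1 and 8.07 and 8.40 for 14B3. All 4 Matrigel arrays lay above all others, and basal and aggregate arrays overlapped. Matrigel stood above basal culture by 2.72 ± 0.26 log2 units (SE), 6.57-fold, with means of 9.40 ± 1.50 and 6.68 ± 0.16 (SD, n = 4 each), and above aggregates by 2.69 ± 0.26. Aggregates and basal culture differed by 0.03 ± 0.26. Here and below, adjusted p-values come from limma with Benjamini-Hochberg adjustment over the 12393 genes, and a gene is called at an adjusted p below 0.05.

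In bulk RNA, fewer cells that express a gene and less RNA per cell cannot be told apart, which holds for every level given. The Matrigel level of Tnc was 3.75 above basal culture in 9A1 and 1.68 in 14B3. The difference between the lines in this response, 14B3 minus 9A1, was -2.07 ± 0.53 (limma, adjusted p = 0.149). It was -2.65 ± 0.53 for Matrigel against aggregates (limma, adjusted p = 0.0674), and that difference passed with the replicate number as a block (adjusted p = 0.0251). It was -1.84 without Matrigel_9A1 replicate 1 and -3.46 without Matrigel_9A1 replicate 2. The SE was smaller in both fits, since the gap between these replicates no longer counted in the spread. The line difference for Tnc in Matrigel against basal culture passed only without Matrigel_9A1 replicate 2 (-2.88, adjusted p = 0.00114; range 0.00114 to 0.409).

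**Figure D1:**
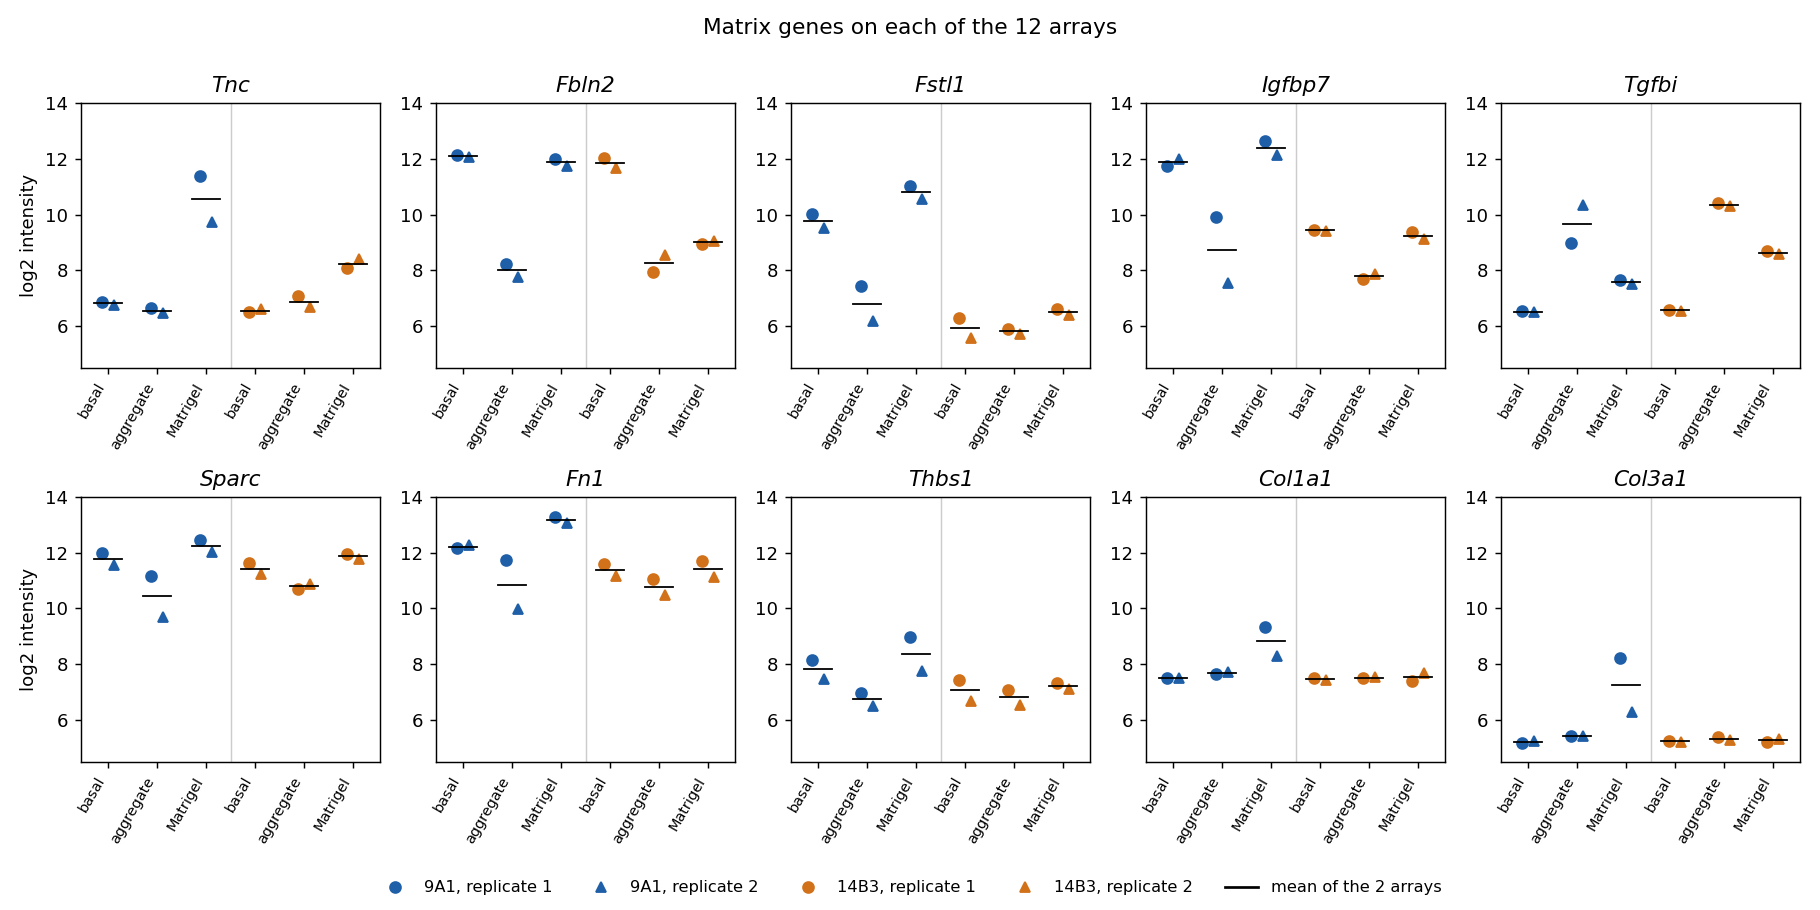
Log2 intensity of each of the 10 genes (vertical axis, same scale in all panels) on the 12 arrays, by culture and line; circles are replicate 1, triangles replicate 2, and bars the mean of both arrays. Tnc is at 8.07 or more on Matrigel arrays alone, Fbln2 is at 9.06 or less in aggregates and in 14B3 in Matrigel, and Tgfbi is lowest, between 6.50 and 6.58, in basal culture.

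Thbs1 encodes thrombospondin-1, which can activate latent TGF-beta and restrains vessel growth. Its log2 intensity in basal culture was 8.16 and 7.47 for 9A1 and 7.44 and 6.68 for 14B3. Aggregates had 6.98 and 6.49 for 9A1 and 7.09 and 6.53 for 14B3, and Matrigel cultures had 8.96 and 7.74 for 9A1 and 7.31 and 7.12 for 14B3. Every Matrigel array lay above every aggregate array, and basal arrays overlapped both. Thbs1 was higher in Matrigel than in aggregates by 1.01 ± 0.27, 2.02-fold (limma, adjusted p = 0.0173). That call was lost without Matrigel_14B3 replicate 1 (0.96, adjusted p = 0.0553), Matrigel_9A1 replicate 1 (0.71, adjusted p = 0.0684), aggregate_14B3 replicate 2 (0.87, adjusted p = 0.0712) or aggregate_9A1 replicate 2 (0.89, adjusted p = 0.0648), in a range of 0.000221 to 0.0712. The other probe set of Thbs1, 1450377_at, with the same mean level of 7.33, gave 0.32 ± 0.16 (adjusted p = 0.155 over all probe sets), 1.01 in 9A1 and -0.36 in 14B3, so the call rests on the chosen one, 1460302_at. The difference of aggregates from basal culture was -0.67 ± 0.27 (adjusted p = 0.0656). With the replicate block its adjusted p by limma was 0.00135. With 1 array left out the difference lay between -0.86 and -0.48. Without 1 of the Matrigel_9A1 arrays, which are not in this comparison, it stayed at -0.67 with a smaller SE. Matrigel differed from basal culture by 0.34 ± 0.27 (adjusted p = 0.446).

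Sparc encodes a collagen-binding protein of bone and remodelling tissue, also called osteonectin. Its basal log2 intensities were 11.99 and 11.56 for 9A1 and 11.64 and 11.22 for 14B3. In aggregates it read 11.17 and 9.70 for 9A1 and 10.70 and 10.88 for 14B3, and in Matrigel 12.44 and 12.02 for 9A1 and 11.95 and 11.79 for 14B3. Aggregate arrays lay below all basal and all Matrigel arrays, which overlapped. Sparc in aggregates fell by 0.99 on the log2 scale from basal culture (SE 0.26, 1.98-fold, limma adjusted p = 0.00723), a size that was -0.62 without aggregate_9A1 replicate 2 (adjusted p = 0.00944; range over alternatives 3.92e-05 to 0.0328). It was higher in Matrigel than in aggregates by 1.44 ± 0.26 (adjusted p = 0.00155). Matrigel and basal culture differed by 0.45 ± 0.26 (limma, adjusted p = 0.252). Without 1 of the arrays of 9A1 aggregates, which are not in this comparison, the value stayed at 0.45 and only the SE became smaller.

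Fbln2 encodes fibulin-2, a glycoprotein of elastic fibres and basement membranes. Basal arrays read 12.14 and 12.08 for 9A1 and 12.04 and 11.67 for 14B3, while aggregates read 8.24 and 7.76 for 9A1 and 7.93 and 8.56 for 14B3. In Matrigel the gene was at 11.99 and 11.75 in 9A1, among the basal values, and at 8.96 and 9.06 in 14B3, between the aggregate and basal values. Aggregates differed from basal culture by -3.86 ± 0.16 on the log2 scale, 14.5-fold, with means of 8.12 ± 0.35 and 11.98 ± 0.21 (SD, n = 4 each). The change was -4.11 in 9A1 and -3.61 in 14B3. In Matrigel the difference from basal culture was -0.24 in 9A1 and -2.85 in 14B3. The test of that line difference gave -2.61 ± 0.31 (limma, adjusted p = 0.00334), and for Matrigel against aggregates, a rise of 3.87 in 9A1 and of 0.76 in 14B3, it gave -3.11 ± 0.31 (adjusted p = 0.00332). Both calls held in every alternative in which they were tested, with adjusted p from 0.00174 to 0.0169 and from 0.000986 to 0.0216. Averaged over the lines, Fbln2 in Matrigel was -1.54 ± 0.16 from basal culture.

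Tgfbi encodes an adhesive protein induced by TGF-beta that binds collagen and integrins, and it ran opposite to Fbln2. The 4 basal arrays read 6.54, 6.50, 6.58 and 6.54. Aggregates read 8.97 and 10.35 for 9A1 and 10.40 and 10.29 for 14B3, and Matrigel cultures 7.65 and 7.49 for 9A1 and 8.69 and 8.57 for 14B3. On this chosen probe set, 1448123_s_at, the cultures did not overlap: basal was lowest, Matrigel between, and aggregates highest, and this order held within each line. Aggregates stood 3.46 ± 0.22 above basal culture, 11.0-fold, with means of 10.00 ± 0.69 and 6.54 ± 0.03 (SD, n = 4 each). Matrigel was above basal culture by 1.56 ± 0.22, 2.95-fold, and differed from aggregates by -1.90 ± 0.22. All 4 Tgfbi probe sets were higher in aggregates, by 2.16 to 3.46. In Matrigel against basal culture 2 of them were closer to 0, 1415871_at at 0.61 ± 0.27 and 1437463_x_at at 0.68 ± 0.37. On the other probe sets cultures overlapped across the lines. Matrigel_14B3 replicate 1 read 8.14 on 1437463_x_at and 8.15 on 1456250_x_at, above aggregate_9A1 replicate 1 at 7.92 and 7.77. On 1415871_at Matrigel_9A1 replicate 2, at 6.62, lay below basal_14B3 replicate 2, at 6.76. The line difference in the Matrigel response of Tgfbi was 1.01 ± 0.44 (limma, adjusted p = 0.684). Without 1 of the arrays of aggregate_9A1, which are not in this comparison, the value stayed at 1.01 and only the SE became smaller. The line difference in aggregates passed without aggregate_9A1 replicate 2 (1.33, adjusted p = 0.0203; range 0.0203 to 1.0), and that of Matrigel against aggregates without aggregate_9A1 replicate 1 (1.07, adjusted p = 0.0481; range 0.0481 to 1.0).

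Fstl1 encodes a secreted glycoprotein with a follistatin-like domain that modulates BMP and TGF-beta signalling, and its level was set apart by line. In 9A1 it read 10.02 and 9.51 in basal culture, 7.43 and 6.17 in aggregates and 11.04 and 10.57 in Matrigel. In 14B3 it read 6.30 and 5.58 in basal culture, 5.89 and 5.72 in aggregates and 6.60 and 6.38 in Matrigel. All 6 arrays of 14B3 thus lay between 5.58 and 6.60, below the 4 basal and Matrigel arrays of 9A1 and overlapping its aggregates. Averaged over cultures, 14B3 was below 9A1 by a log2 difference of -3.04 ± 0.21, 8.25-fold (limma, adjusted p = 3.8e-06). The other probe set, 1416221_at, gave -2.78 ± 0.11.

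Fstl1 changed with culture in 9A1, by -2.97 in aggregates and 1.04 in Matrigel from basal culture, and by -0.13 and 0.55 in 14B3. In 14B3 it read 5.58 to 6.60 in all cultures, below the median gene, so a fall there may not have been measurable. The line difference in the aggregate response was 2.84 ± 0.51 (limma, adjusted p = 0.0364) and in Matrigel against aggregates -3.32 ± 0.51 (adjusted p = 0.0181). The first was lost with quantile normalization (2.79, adjusted p = 0.0653) and without basal_9A1 replicate 1 or 2, basal_14B3 replicate 2, either array of aggregate_14B3 or either array of Matrigel_14B3 (2.48 to 3.09), in a range of 0.00103 to 0.181 over all alternatives. The second was lost with array weights and without Matrigel_14B3 replicate 2, Matrigel_9A1 replicate 1 or either array of aggregate_14B3 (-3.41 to -3.09; range 0.00106 to 0.103). Averaged over lines Fstl1 was lower in aggregates than in basal culture by a difference of -1.55 ± 0.25 (adjusted p = 0.000285) and higher in Matrigel than in aggregates by 2.34 ± 0.25 (adjusted p = 5.38e-05). The rise from basal culture to Matrigel, 0.79 ± 0.25 (adjusted p = 0.0353), was lost without Matrigel_14B3 replicate 1 (0.0923) or 2 (0.0589), Matrigel_9A1 replicate 1 (0.12), basal_14B3 replicate 2 (0.138) or basal_9A1 replicate 2 (0.118), in a range of 0.0015 to 0.363.

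Igfbp7 encodes a secreted protein that binds insulin-like growth factors and matrix, and it too was higher in 9A1. Basal arrays read 11.76 and 11.98 for 9A1 and 9.44 and 9.42 for 14B3. In Matrigel it read 12.63 and 12.14 for 9A1 and 9.36 and 9.11 for 14B3. In aggregates the 9A1 replicates stood apart, at 9.92 and 7.55, and those of 14B3 read 7.69 and 7.87. Averaged over cultures 14B3 was below 9A1 by a difference of -2.18 ± 0.30, 4.53-fold (limma, adjusted p = 0.00102). Aggregates differed from basal culture by -2.39 ± 0.37, by -3.14 in 9A1 and -1.65 in 14B3. Matrigel stood above aggregates by 2.55 ± 0.37, 5.85-fold, and differed from basal culture by 0.16 ± 0.37.

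The line difference of Igfbp7 in the aggregate response was 1.49 ± 0.74 (limma, adjusted p = 0.818). It passed without aggregate_9A1 replicate 1, at 2.67 (adjusted p = 0.00151; range 0.000899 to 1.0), and the corresponding difference of Matrigel against aggregates, -2.19, became -3.38 (adjusted p = 0.000971). The other probe sets of Igfbp7 gave smaller values than the chosen one, 1423584_at. Of these, 1423585_at had the same direction, at -0.21 ± 0.09 in aggregates against basal culture, 0.26 ± 0.09 in Matrigel against aggregates and -0.32 ± 0.08 between the lines (limma, adjusted p = 0.0323 over all probe sets). Within 9A1 it gave -0.37 ± 0.13 and 0.51 ± 0.13 for the culture comparisons, and within 14B3 -0.05 and 0.01. The third, 1437804_at, had the opposite direction, at 0.22 ± 0.16, -0.21 ± 0.16 and 0.15 ± 0.13 (the last with an adjusted p of 0.685 by limma). The mean of the 3 probe sets was -0.79 in aggregates against basal culture, 0.87 in Matrigel against aggregates and -0.78 between the lines (adjusted p = 0.00216 for the lines).

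Fn1 encodes fibronectin, the adhesive glycoprotein on which other matrix proteins assemble. Basal log2 intensities were 12.16 and 12.28 for 9A1 and 11.60 and 11.17 for 14B3. Aggregates had 11.73 and 9.97 for 9A1 and 11.05 and 10.49 for 14B3, and Matrigel cultures had 13.27 and 13.07 for 9A1 and 11.70 and 11.12 for 14B3. The 9A1 Matrigel arrays were above all other arrays, and those of 14B3 overlapped its basal arrays. Fn1 differed in aggregates from basal culture by -0.99 ± 0.30 (limma, adjusted p = 0.018). The call was lost without aggregate_14B3 replicate 2 (-0.86, adjusted p = 0.0726) or basal_14B3 replicate 1 (-0.89, adjusted p = 0.0667), and the difference was -0.55 without aggregate_9A1 replicate 2 (adjusted p = 0.034; range 7.29e-05 to 0.0726). In Matrigel Fn1 was higher than in aggregates by 1.48 ± 0.30, 2.79-fold (adjusted p = 0.00373), and differed from basal culture by 0.49 ± 0.30 (adjusted p = 0.301). Its other probe set, 1437218_at, gave -0.45 for aggregates against basal culture and 0.35 for Matrigel against aggregates, neither of which passed over all probe sets (adjusted p = 0.12 and 0.257). The line difference of Fn1 in Matrigel against aggregates, -1.68 (adjusted p = 0.602), passed without aggregate_9A1 replicate 1 (-2.56, adjusted p = 0.0136; range 0.0136 to 1.0).

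Col1a1 and Col3a1 encode chains of the fibrillar collagens I and III, the main load-bearing fibres of interstitial matrix. Col1a1 read between 7.39 and 7.73 on 10 arrays of all cultures and lines, and 9.35 and 8.29 on those of 9A1 in Matrigel. Col3a1 read between 5.17 and 5.43 on the same 10 arrays, and 8.22 and 6.28 in 9A1 in Matrigel. Both genes were thus above the rest on these 2 arrays alone, and replicate 1 was the higher for each. The Matrigel change in 9A1 was 1.31 for Col1a1 and 2.04 for Col3a1, and in 14B3 it was 0.07 and 0.02. The line difference in this response was -1.24 ± 0.36 for Col1a1 (limma, adjusted p = 0.238) and -2.02 ± 0.59 for Col3a1 (adjusted p = 0.239), neither called. Without Matrigel_9A1 replicate 2 it passed for Col1a1 (-1.77, adjusted p = 0.00445; range 0.00445 to 0.641) and for Col3a1 (-2.99, adjusted p = 8.75e-05), and without Matrigel_9A1 replicate 1 for Col3a1 alone (-1.05, adjusted p = 0.0421; range 8.75e-05 to 0.641).

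Averaged over both lines, Matrigel differed from basal culture by 0.69 ± 0.18 for Col1a1 (limma, adjusted p = 0.0136) and by 1.03 ± 0.30 for Col3a1 (adjusted p = 0.021). Without Matrigel_9A1 replicate 1 these differences were 0.42 and 0.55, still called; the Col1a1 call was lost without Matrigel_14B3 replicate 2 (adjusted p = 0.0517; range 0.000113 to 0.0655), and the Col3a1 call without Matrigel_14B3 replicate 2, basal_9A1 replicate 1 or either basal_14B3 array (0.0546 to 0.0594; range 1.79e-06 to 0.0938). Matrigel against aggregates gave 0.58 ± 0.18 for Col1a1 (adjusted p = 0.0355) and 0.88 ± 0.30 for Col3a1 (adjusted p = 0.0474). The Col1a1 call was lost without any 1 of the 4 aggregate arrays, Matrigel_14B3 replicate 2 or Matrigel_9A1 replicate 1 (0.31 to 0.60; range of adjusted p 0.000328 to 0.152), and the Col3a1 call without any 1 of the 10 arrays other than Matrigel_9A1 replicates 1 and 2, without which it stood at 0.39 and 1.36 (range of adjusted p 1.62e-05 to 0.162). Aggregates differed from basal culture by 0.11 for Col1a1 (adjusted p = 0.642) and 0.15 for Col3a1 (adjusted p = 0.692).

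The second probe set of Col1a1, 1423669_at, showed the same arrays apart, and by more. It read 11.58 and 8.87 in 9A1 in Matrigel and between 6.06 and 6.99 on the other 10 arrays, a Matrigel change of 3.46 ± 0.61 in 9A1 and -0.10 ± 0.61 in 14B3. That of Col3a1, 1427884_at, read 6.32 and 5.54 in 9A1 in Matrigel, and only replicate 1 lay above the other arrays. Its Matrigel change averaged over lines was 0.23 ± 0.16 (limma, adjusted p = 0.371 over all probe sets). Col3a1 was below the median gene on all 12 arrays and Col1a1 on 11, and no detection calls came with the values.

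**Figure D2:**
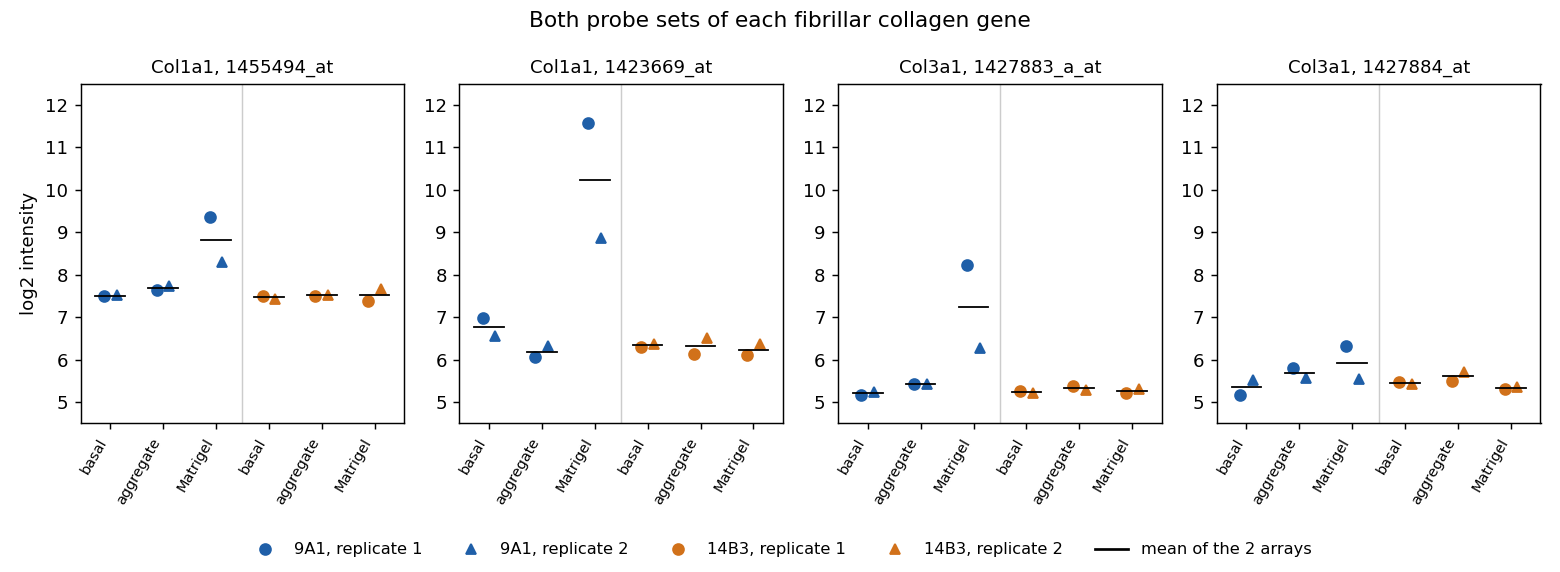
Log2 intensity (vertical axis, same scale) of both probe sets of Col1a1 and of Col3a1 on the 12 arrays, by culture and line, with bars at the mean of both arrays. In 9A1 in Matrigel 3 of the 4 probe sets lie above all other arrays on both replicates, up to 11.58 for 1423669_at, while for 1427884_at only replicate 1, at 6.32, does.

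Side by side, the cultures gave these counts. In aggregates against basal culture 1 of the 10 genes was higher (Tgfbi), 5 were lower (Fbln2, Fstl1, Igfbp7, Sparc and Fn1) and 4 were not called, beside 22.9% of all genes higher and 23.4% lower. In Matrigel against basal culture 5 were higher (Tnc, Tgfbi, Fstl1, Col1a1 and Col3a1), 1 was lower (Fbln2) and 4 were not called, beside 14.1% of all genes higher and 14.3% lower. Without Matrigel_14B3 replicate 2 the 6 called genes were 3 (Tnc, Fbln2 and Tgfbi). In Matrigel against aggregates 9 were higher and Tgfbi lower, beside 13.9% of all genes higher and 12.7% lower. The median change of the 10 genes was -0.83, 0.59 and 1.46 in these comparisons, and that of all genes 0.10, -0.04 and -0.10. The counts include the changes known before, and the comparisons share their arrays, so they are not independent of each other. Arrays of the cultures did not overlap for 4, 2 and 5 of the 10 genes, and for 46.4%, 26.2% and 25.3% of all genes.

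**Figure D3:**
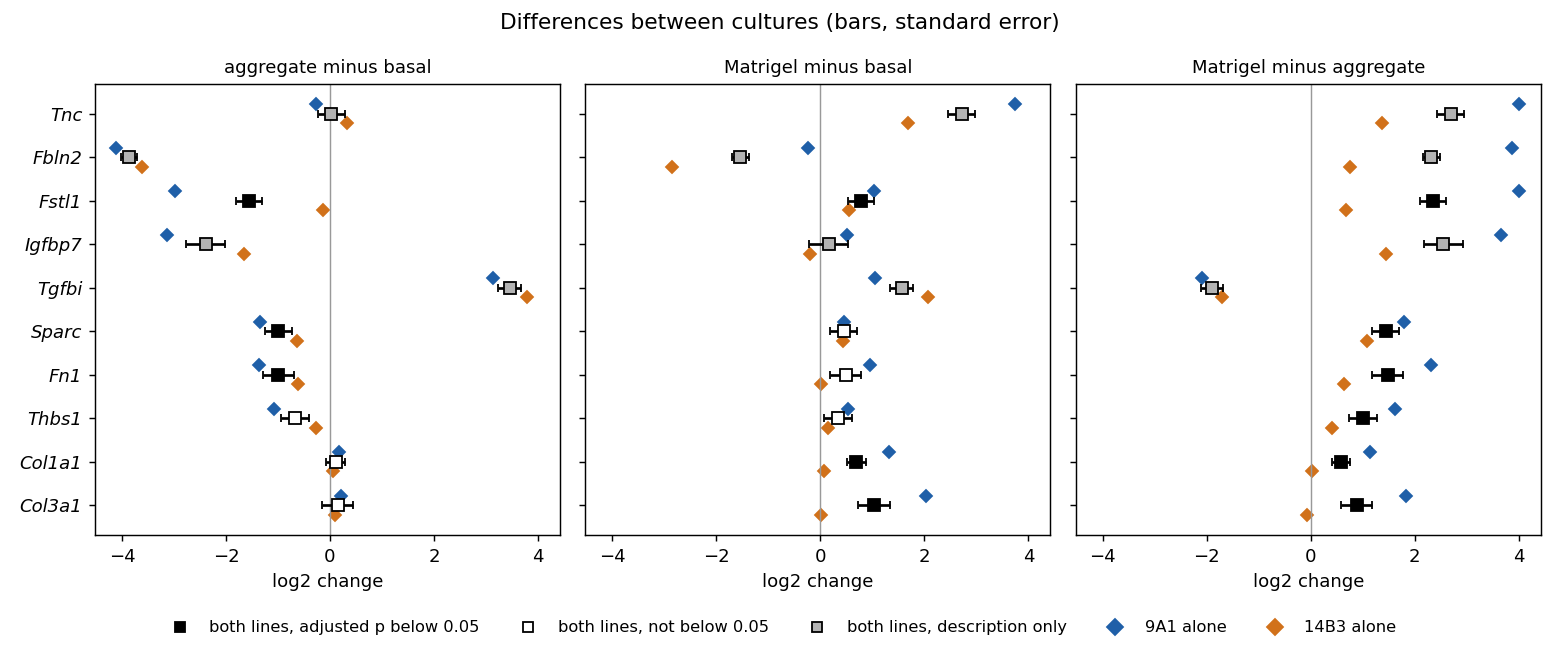
Log2 change of each gene (horizontal axis) in the 3 comparisons of cultures; squares are the change averaged over both lines with its standard error, black where the adjusted p was below 0.05, white where not and grey for the 4 genes whose culture changes are descriptions, and diamonds the change in 9A1 and in 14B3 alone. Fbln2 and Tgfbi go opposite ways in aggregates, at -3.86 and 3.46, and in Matrigel the lines part most for Fbln2, at -0.24 in 9A1 and -2.85 in 14B3.

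The lines were then compared. Averaged over cultures, 3 of the 10 genes were lower in 14B3 (Fbln2, Fstl1 and Igfbp7) and 7 were not called, beside 3.45% of all genes lower and 2.57% higher. Fbln2 was at -0.96 ± 0.13 (limma, adjusted p = 0.000799), a call lost in an additive fit of line and culture (-0.96 ± 0.40, adjusted p = 0.257; range 0.000437 to 0.257). Its line means were 9.01 against 11.87 in Matrigel, 11.86 against 12.11 in basal culture and 8.25 against 8.0 in aggregates, so 14B3 was the higher in aggregates. With the replicate block 6 genes were lower, the added ones being Tnc (-0.75, adjusted p = 0.0274), Fn1 (-0.89, adjusted p = 0.0177) and Thbs1 (-0.61, adjusted p = 0.00548), and the count over all genes went from 745 to 1119. Without the block the adjusted p was 0.0661 for Tnc, 0.06 for Fn1 and 0.17 for Thbs1, with ranges over the alternatives of 0.000244 to 0.37, 0.000632 to 0.173 and 0.00548 to 0.568. Leaving out 1 array moved the count of 3 to 5 for Matrigel_9A1 replicate 1 and either array of aggregate_9A1, and to 7 for Matrigel_9A1 replicate 2. The second probe sets of Fn1, 1437218_at, and of Col1a1, 1423669_at, passed between the lines (-0.84 and -1.43, adjusted p = 0.0204 and 0.0423 over all probe sets). Sparc differed by -0.12 ± 0.21 (adjusted p = 0.872).

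The difference between the lines in a response was called for 1 gene in aggregates against basal culture (Fstl1), 1 in Matrigel against basal culture (Fbln2) and 2 in Matrigel against aggregates (Fbln2 and Fstl1), beside 0.468%, 0.686% and 0.42% of all genes. The last of these comparisons was chosen after seeing the data, and culture changes of Fbln2 were known when the genes were chosen. With the replicate block the shares of all genes were 0.952%, 1.33% and 0.775%, 118, 165 and 96 genes in place of 58, 85 and 52, and Tnc was added in the last comparison. Within 9A1 alone 7 genes were called in aggregates against basal culture, 4 in Matrigel against basal culture and 10 in Matrigel against aggregates, beside 36.9%, 17.8% and 15.6% of all genes. Within 14B3 alone 3 were called in each comparison, beside 33.2%, 16.5% and 13.0%. The counts of both lines include Tnc, Fbln2, Igfbp7 and Tgfbi, whose culture changes were known before. In 14B3 every called gene was among these. These counts moved when 1 array was left out, from 4 to 7, 3 to 6 and 7 to 10 in 9A1 and from 2 to 4, 2 to 3 and 1 to 5 in 14B3. The count of 7 in 9A1 became 4 without basal_9A1 replicate 1 or aggregate_9A1 replicate 2. The last count in 14B3 was 6 with the replicate block, beside 19.4% of all genes. The block added Fstl1 (0.68, limma, adjusted p = 0.0385), Sparc (1.08, adjusted p = 0.0106) and Igfbp7. The other probe sets gave -0.11 for Fstl1, 1.22 for Sparc and 0.01 and -0.27 for Igfbp7 there, in the fit without the block. In 9A1 the block added Fstl1 in Matrigel against basal culture (1.04, limma, adjusted p = 0.00419), 5 in place of 4, beside 22.8% of all genes. A call in 1 line and none in the other does not show that the lines differ; the test of the difference is the one given at the start of this paragraph.

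Other matricellular genes were taken from a list of 25 measured members. In aggregates 2 rose and 6 fell against basal culture, in Matrigel 1 rose and 2 fell, and against aggregates 6 were higher and 1 was lower. These calls were 32.0%, 12.0% and 28.0% of the list, beside 46.3%, 28.4% and 26.7% of all genes. The median changes were 0.14, -0.05 and -0.02, beside 0.10, -0.04 and -0.10 over all genes. Efemp1, a fibulin of basement membranes, was lower in aggregates and fell by 3.31 on the log2 scale (SE 0.31, limma adjusted p = 3.24e-06). Ccn2, the connective tissue growth factor gene, fell by 2.42 in aggregates (SE 0.35, adjusted p = 0.000102) and was 2.33 ± 0.35 higher in Matrigel than in aggregates (adjusted p = 0.000484). Igfbp3, an insulin-like growth factor binding protein, rose in Matrigel by 1.35 ± 0.20 from basal culture and was 3.05 ± 0.20 above aggregates. Fbln1, fibulin-1, was at -0.63 ± 0.13 in Matrigel (adjusted p = 0.00301). With the replicate block 12 list members in place of 7 were called between Matrigel and aggregates, beside 37.8% of all genes in that fit.

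Of the other interstitial matrix genes, 21 measured, 1 rose and 1 fell in aggregates. Col5a2, a fibrillar collagen V chain that sets fibre width, fell by 1.25 there (SE 0.15, limma adjusted p = 2.8e-05) and was 0.95 ± 0.15 higher in Matrigel than in aggregates. In Matrigel 4 rose and none fell against basal culture, among them Col6a1, of the beaded collagen VI, at 0.96 ± 0.17 (adjusted p = 0.00125), and Col5a1 at 0.95 ± 0.15 (adjusted p = 0.000494). These are averages over lines, and the Matrigel arrays spread widely (SD 1.52 and 1.04, n = 4). Over all cultures Col6a1 was 7.57 ± 0.17 in 14B3 and 8.54 ± 1.16 in 9A1 (SD, n = 6 each). That line difference was -0.97 ± 0.14 (limma, adjusted p = 0.00139). Between the lines 4 of the list were lower in 14B3 and 0 higher, 19.0% beside 6.01% of all genes. Against aggregates 3 were higher in Matrigel and 1 lower. The calls were 9.52%, 19.0% and 19.0% of the list, beside 46.3%, 28.4% and 26.7% of all genes. The list's median changes were 0.16, -0.04 and -0.11 in the 3 comparisons, beside 0.10, -0.04 and -0.10 over all genes. With the replicate block 52.6% of all genes were called in aggregates. The count of 2 called in aggregates was 6 with the replicate block, 1 without basal_9A1 replicate 2, basal_14B3 replicate 1 or aggregate_9A1 replicate 2, and 5 without aggregate_14B3 replicate 1.

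Genes that fold, trim and cross-link collagen, 19 measured, gave calls in both directions. In aggregates 4 rose and 6 fell, in Matrigel 4 rose and 4 fell against basal culture, and against aggregates Matrigel had 4 higher and 1 lower. Their shares called, 52.6%, 42.1% and 26.3%, stood beside 46.3%, 28.4% and 26.7% of all genes. Serpinh1, the collagen chaperone, in aggregates fell by 1.48 (SE 0.17, limma adjusted p = 1.29e-05) and was 1.35 ± 0.17 higher in Matrigel than there. Tgm2, a cross-linking transglutaminase, rose in aggregates by 1.91 ± 0.33 and in Matrigel by 1.62 ± 0.33, and P4hb, a subunit of prolyl hydroxylase, rose in aggregates by 1.23 ± 0.09. Pcolce2, an enhancer of procollagen trimming, in aggregates fell by 1.45 (SE 0.30, adjusted p = 0.00166), and Pcolce was at -0.58 ± 0.11 in Matrigel. Ppib, a cyclophilin that acts on collagen, was 0.55 ± 0.09 higher in Matrigel than in aggregates, and P4hb differed there by -0.57 ± 0.09. The list's median changes were -0.01, 0.03 and 0.10. The count of 8 called in Matrigel was 5 without basal_9A1 replicate 1 and 4 without basal_14B3 replicate 1.

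Matrix proteases and their inhibitors, 26 measured, had 10 genes that fell and 3 that rose in aggregates, while the list's median change there was 0.04. Mmp13, a collagenase, fell by 2.40 (SE 0.26, limma adjusted p = 9.8e-06) and Timp2, a metalloprotease inhibitor, by 2.22 (SE 0.15, adjusted p = 1.62e-07), while Mmp19 rose by 0.43 ± 0.10 and Adamts4 by 0.40 ± 0.09. In Matrigel 4 rose and 5 fell against basal culture, with Adamts1, a versican-cleaving protease, at 1.52 ± 0.29 (adjusted p = 0.00207), Mmp13 at -1.85 ± 0.26 and Timp2 at -1.09 ± 0.15. Against aggregates 9 were higher in Matrigel and 2 lower, with the plasminogen activator gene Plat at 1.85 ± 0.10 and the membrane collagenase gene Mmp14 at 1.55 ± 0.18. Called were 50%, 34.6% and 42.3% of the list, beside 46.3%, 28.4% and 26.7% of all genes. In the Matrigel comparisons the median changes were -0.13 and 0.05. The count of 9 called in Matrigel was 5 without basal_9A1 replicate 1, and the 11 called against aggregates were 7 without aggregate_9A1 replicate 2 or Matrigel_9A1 replicate 1.

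Among 20 matrix receptors 3 rose and 5 fell in aggregates, 4 rose and 1 fell in Matrigel, and Matrigel against aggregates had 3 higher and 2 lower. That is 40.0%, 25.0% and 25.0% of the list, beside 46.3%, 28.4% and 26.7% of all genes. Cd36, a thrombospondin receptor and fatty acid transporter, rose in aggregates by 3.30 ± 0.25 (limma, adjusted p = 5.8e-07) and in Matrigel by 1.65 ± 0.25. Cd44, the hyaluronan receptor, in aggregates fell by 2.92 (SE 0.30, adjusted p = 6.38e-06) and was 2.14 ± 0.30 higher in Matrigel than in aggregates. Itgb6, an integrin chain that activates TGF-beta, in aggregates fell by 0.88 (SE 0.16, adjusted p = 0.000723), and Cd47 rose by 0.54 ± 0.10 there and was at -0.45 ± 0.10 in Matrigel against aggregates. Itga5, a chain of the fibronectin receptor, was 1.10 ± 0.17 higher in Matrigel than in aggregates (adjusted p = 0.000584). The receptors had median changes of 0.10, 0.01 and 0.09. The 5 called in Matrigel against basal culture were 2 or 3 without any 1 of the 4 basal arrays or Matrigel_9A1 replicate 2. Between Matrigel and aggregates the replicate block gave 9 calls in place of 5, beside 37.8% of all genes in that fit.

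The TGF-beta and activin list held 27 measured genes, of which 12 fell and 3 rose in aggregates, beside 23.4% and 22.9% of all genes. The receptor genes Acvr2a and Acvr1b rose there by 1.50 ± 0.12 and 1.49 ± 0.10 (limma, adjusted p = 8.03e-07 and 2.49e-07), and the receptor gene Acvr1 fell by 1.45 (SE 0.24, adjusted p = 0.000305). Ltbp1, which stores latent TGF-beta in the matrix, in aggregates fell by 1.65 (SE 0.16, adjusted p = 4.42e-06) and was 1.58 ± 0.16 higher in Matrigel than there. In Matrigel 4 rose and 1 fell against basal culture, with Acvr2a at 1.02 ± 0.12 and Acvr1b at 0.95 ± 0.10, and against aggregates 8 were higher and 3 lower. Called in the 3 comparisons were 55.6%, 18.5% and 40.7% of the list, beside 46.3%, 28.4% and 26.7% of all genes. The ligand gene Tgfb1 was 1.18 ± 0.15 higher in Matrigel than in aggregates (adjusted p = 0.000145), and Acvr1b and Acvr2a differed there by -0.54 ± 0.10 and -0.48 ± 0.12. The list's median changes were -0.17, 0.03 and 0.22, against 0.10, -0.04 and -0.10 over all genes. With the replicate block 33.7% of all genes were called in Matrigel against basal culture. The 11 called between Matrigel and aggregates were 6 without aggregate_9A1 replicate 2 or Matrigel_9A1 replicate 1 and 7 without Matrigel_14B3 replicate 1. The 5 called in Matrigel against basal culture were 9 with the replicate block, 3 without basal_9A1 replicate 1 or either basal_14B3 array, and 2 without Matrigel_14B3 replicate 2.

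Further list genes passed by less and lost the call without 1 array or more. In aggregates these were Vtn (0.34), Smoc2 (0.25) and Col5a3 (0.39), lost without any 1 of 6, 7 and 4 arrays. In Matrigel against basal culture they were Efemp1 (-1.15), P4ha2 (0.83), Pcolce2 (-0.98), Adam10 (0.49), Itga5 (0.65), Itga3 (-0.53) and Smad3 (-0.44), lost without any 1 of 2, 3, 4, 1, 2, 4 and 1 arrays. Matrigel against aggregates had Sparcl1 (-0.38), Mfap4 (-0.45), Mmp2 (-0.44) and Mmp19 (-0.34), lost without any 1 of 7, 5, 9 and 4 arrays.

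Genes with the pattern nearest to each member were sought by the root mean square difference of log2 values over the 12 arrays after each gene was centred on its mean. Tnc lay nearest to Socs2, Ctla2a and Acta2 (0.59, 0.70 and 0.81, against a spread of 1.49 of Tnc about its own mean). Fbln2 lay nearest to Gjc1, Ccnd1 and Hmga2 (0.55 to 0.57), Fstl1 to Scara3 (0.40), with Glipr1 and Akap12 at 0.85 and 0.88, and Igfbp7 to Ccn2, Ankrd1 and Akap12 (0.65 to 0.72). Tgfbi lay nearest to Trim31, Gpr155 and Ppp1r14d (0.37 to 0.40), Sparc to Tgif1, Spon2 and Maged1 (0.31 to 0.33), and Fn1 to Dpysl3, Tgfb1 and Arhgap6 (0.38 to 0.43). Thbs1 was nearest to Nrp1, Gzmd and Nhsl1 (0.30 to 0.31). Col1a1 lay nearest to Medag, Pcdhb17 and Col5a1 (0.13 to 0.21) and Col3a1 to Col5a1, Col6a1 and Medag (0.27 to 0.32). All genes share the same 12 arrays, so this likeness is a description.

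Markers of other cell types were read on the same arrays, since several of the 10 genes are classical products of mesenchymal cells. The summed linear intensity of 15 stellate cell and fibroblast markers was 3897 and 3578 in 9A1 in Matrigel, where Tnc, Col1a1 and Col3a1 were highest, and 2075 to 2767 on the other 10 arrays. Acta2, smooth muscle actin, was the marker that stood out: its log2 intensity was 11.17 and 10.62 in 9A1 in Matrigel and 8.63 to 9.08 elsewhere. The defining markers Dcn (7.27 to 8.01), Lum (5.89 to 6.46), Lrat (4.91 to 5.11) and Des (7.60 to 8.12) lay on those arrays within or below the span of the other arrays, and Pdgfrb read 7.18 on Matrigel_9A1 replicate 1 against 6.31 to 6.98 on the others. Of the 15, 1 was called in Matrigel against basal culture, Acta2 at 1.04 ± 0.13 (limma, adjusted p = 0.000106). In aggregates Gfap (0.37) and Reln (0.28) passed by little, lost without any 1 of 6 and 7 arrays, and against aggregates Acta2 was at 1.17 ± 0.13 in Matrigel and Tcf21 at -0.26, lost without any 1 of 11 arrays. The calls were 13.3%, 6.67% and 13.3% of these markers, beside 46.3%, 28.4% and 26.7% of all genes. With the replicate block 4 markers were called in aggregates and 6 between Matrigel and aggregates, in place of 2 and 2, beside 52.6% and 37.8% of all genes in that fit. The part of such cells in the Tnc and collagen levels was not tested.

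Haematopoietic and macrophage markers, 13 measured, summed to 6280 and 5880 in 9A1 aggregates and to 3253 to 4665 on the other arrays, with Csf1r at 11.78 and 11.69 against 9.05 to 10.63. A linear sum follows its brightest member, here Csf1r, so it does not show a rise across the list. Csf1r rose in aggregates by 1.48 ± 0.10 (limma, adjusted p = 2.64e-07) and in Matrigel by 0.60 ± 0.10, Cd14 was at -0.68 ± 0.14 in aggregates, and Cd68 was 0.72 ± 0.12 higher in Matrigel than in aggregates. Ptprc (0.41 in aggregates), Cd68 (0.46 in Matrigel) and Cd14 (-0.44 in Matrigel) lost their calls without any 1 of 6, 1 and 7 arrays. With the replicate block 8 of these markers in place of 3 were called in aggregates, and 6 in place of 2 between Matrigel and aggregates, beside 52.6% and 37.8% of all genes. Csf1r was at -0.88 ± 0.10 in Matrigel against aggregates. Endothelial markers, 14 measured, summed to between 1903 and 2819, with Esam at 0.41 ± 0.10 in aggregates (adjusted p = 0.00449) and Cdh5 at 0.50 in Matrigel, lost without any 1 of 5 arrays. Between Matrigel and aggregates limma called 0 of the 14, and 1 had an unadjusted p below 0.05. With the replicate block 1 was called there and 2 in place of 1 in Matrigel against basal culture, beside 37.8% and 33.7% of all genes. Without the block, 23.1%, 23.1% and 15.4% of the haematopoietic and macrophage markers were called in the 3 comparisons. Of the endothelial markers 7.14%, 7.14% and 0.0% were called, and each share was below that of all genes in the same fit. In 14B3 in Matrigel Cdh5 read 8.47 and 8.87 against 7.02 to 7.98 elsewhere. Their part in the levels of the 10 genes was not tested.

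Of 14 liver epithelial markers 8 rose and 4 fell in aggregates, and 7 rose and none fell in Matrigel against basal culture, beside 22.9% and 23.4% of all genes in aggregates and 14.1% and 14.3% in Matrigel. Epcam, an epithelial adhesion molecule, rose by 5.00 ± 0.16 and 4.74 ± 0.16 (limma, adjusted p = 5.82e-10 and 2.33e-09), and albumin, Alb, by 4.38 ± 0.43 and 4.46 ± 0.43. Ttr and Afp, of hepatocytes and fetal liver, rose by 4.15 and 2.08 in aggregates and by 2.84 and 2.66 in Matrigel. The forkhead genes Foxa1 and Foxa2 fell in aggregates by 1.78 and 1.51, and the keratin gene Krt18 by 1.32 (adjusted p = 4.51e-06, 0.000168 and 2.05e-06). These 3 were higher in Matrigel than in aggregates, by 1.77, 1.06 and 1.12. Hnf4a, Foxa3 and Cdh1 rose by 0.94, 0.91 and 0.54 in aggregates and by 0.55, 1.20 and 0.55 in Matrigel, Prox1 rose by 0.43 in aggregates, and Sox9 differed there by -0.47. The Cdh1 calls were lost without any 1 of 4 arrays in aggregates and of 6 in Matrigel. Ttr, Prox1 and Hnf4a were at -1.31, -0.41 and -0.40 in Matrigel against aggregates, the last 2 lost without any 1 of 4 arrays each. Between the lines, 14B3 minus 9A1, the called markers of all 4 lists were Foxa1 (0.74), Sox9 (-0.57), Acta2 (-0.77), Csf1r (-1.13), Cdh5 (0.64) and Vwf (0.39), the last lost without any 1 of 9 arrays.

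**Figure D4:**
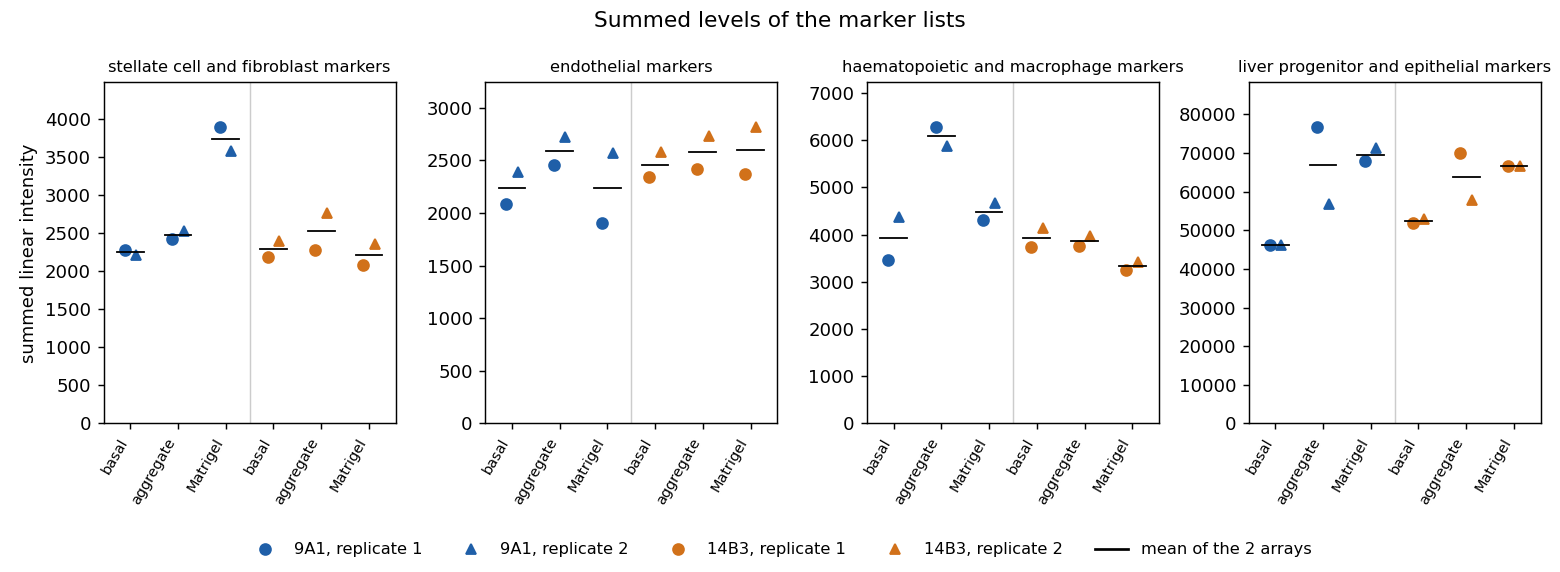
Summed linear intensity of 4 marker lists (vertical axes, from 0) on each array, by culture and line, with bars at the mean of both arrays. The stellate cell and fibroblast sum is highest in 9A1 in Matrigel, at 3897 and 3578, and the haematopoietic and macrophage sum in 9A1 aggregates, at 6280 and 5880. A linear sum follows its brightest members and does not show a rise across a list. Acta2 read a log2 of 11.17 and 10.62 in 9A1 in Matrigel, and Csf1r 11.78 and 11.69 in 9A1 aggregates.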

How the data were processed

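The authors' deposited values were RMA intensity per probe set on a linear scale, from 14.4 to 27318, made with R 2.3.1 and RMA per the submitters' processing notes; the log2 of each value was taken. Of 22690 probe sets 20380 had 1 gene symbol, 691 several, 1555 none and 64 were controls, by a platform annotation that can be old; 20351 had a gene ID found in RefSeq's mouse gene table. The brightest probe set stood for each of 12393 genes (4956 had several), with no filter on dim genes.

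Log2 values were fitted with limma 3.58.1 in R 4.3.3 (lmFit and eBayes), 1 mean per group for 6 groups, which left 6 degrees of freedom; the typical residual SD was 0.17. Tests were two-sided, with Benjamini-Hochberg adjustment across the 12393 genes and a threshold of 0.05, and the scripts were tested on simulated data.

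The members, the lists of related genes and the markers were chosen with earlier results of these data known. Named genes were all members, the 2 largest called rises and falls of each list in each culture comparison, the 3 genes nearest to each member and any called marker among those tested. The differences between replicates 2 and 1 correlated between groups in all 15 pairs of groups (r from 0.101 to 0.644). Between groups of the same line r was 0.101 to 0.419. Between the lines in the same culture it was 0.644 in Matrigel, 0.574 in basal culture and 0.27 in aggregates. A block within each line takes no account of arrays paired between the lines. Replicate numbers may thus pair the arrays, but the main fit and its p-values took no pairing into account. The value with the replicate block within each line is therefore printed where a call of the 10 genes changes or a printed count of calls shifts more than 1.5 times. The other alternatives were leaving out each array, quantile normalization, centring on array medians, averaging each gene's probe sets, testing all probe sets singly, genes above the median level, array weights, an additive fit and a minimum change of 1 log2 unit. Leaving out aggregate_9A1 replicate 1 and Matrigel_9A1 replicate 1 together, and the line difference for Matrigel against aggregates, were chosen after seeing the data. Figures were drawn with matplotlib 3.10.9.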

Additional observations from a re-analysis of the deposited data

Results flagged for a closer look

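Responses to culture differed between the lines for Fbln2 and Fstl1, by the test of the difference itself, 14B3 minus 9A1 (limma). The line difference for Matrigel against aggregates was chosen after seeing the data. Culture changes of Fbln2 were known when the genes were chosen, so its p-values here are not independent of that choice. For Fbln2 the difference was -2.61 in Matrigel against basal culture and -3.11 in Matrigel against aggregates, the adjusted p being at most 0.0216 in the alternatives tested. For Fstl1 it was 2.84 in aggregates against basal culture and -3.32 in Matrigel against aggregates, where the adjusted p reached 0.181 and 0.103 among the alternatives. These results share the 4 arrays of aggregates or of Matrigel, so they are not 4 separate findings. In 14B3 Fstl1 read 5.58 to 6.60 in all cultures, below the median gene, so a fall there may not have been measurable. Groups held 2 arrays each, too few to ask whether 1 array stands apart from its group.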

How the results depend on the processing

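Of 1412 values of the 10 genes recomputed under 21 alternative settings or other probe sets, 1294 stayed on their side of the threshold. Some of these changed sign where neither value was called, such as Fn1 in Matrigel against basal culture (0.49, and -0.1 for 1437218_at). Comparisons within a line were not counted. The other values were 66 that lost a call, 48 that gained one and 4 that turned, changing sign where a value was called. The turned values were those of Igfbp7 probe set 1437804_at (0.22 in aggregates, -0.21 in Matrigel against aggregates, 0.15 between lines) and Col3a1 1427884_at (-0.02 in Matrigel against aggregates). Keeping only genes above the median level left 4 of the 10 genes to test (Fbln2, Igfbp7, Sparc and Fn1). The counts called there were 1 in Matrigel against basal culture and 4 against aggregates, 0 and 1 for the line differences of aggregates against basal culture and Matrigel against aggregates, 4, 0 and 4 within 9A1 and 1 and 1 for the Matrigel comparisons within 14B3, and 479 genes between lines. Where limma called 0 of these 4, 0 had an unadjusted p below 0.05. Quantile normalization left 0 line differences in aggregates against basal culture (1 at an unadjusted p below 0.05), and array weights 1 in Matrigel against aggregates. An additive fit gave 3 in Matrigel against basal culture and 478 genes between lines, where averaging the probe sets of each gene gave 5 of the 10. The replicate block gave 6 between lines, with 1119 genes, and 6 in Matrigel against aggregates within 14B3. In the culture comparisons averaged over both lines it changed no call of the 10 genes but that of Thbs1 in aggregates. With both arrays in doubt left out, the counts were 5 between lines, 2 and 5 line differences for aggregates against basal culture and Matrigel against aggregates, and 5 for the latter within 14B3. A minimum change of 1 log2 unit kept 1935, 747 and 572 genes in the 3 culture comparisons and 137 between lines; of those called, 65.9% were higher in Matrigel than in basal culture and 67.3% than in aggregates. Leaving out 1 array gave 3 to 7 in Matrigel against basal culture and between lines, with 494 to 747 genes between lines; line differences of 0 to 2 (where limma called 0, 1 to 2 had an unadjusted p below 0.05), 1 to 4 and 1 to 5; 4 to 7 for aggregates within 9A1; and 1 to 5 for Matrigel against aggregates within 14B3. Groups of 2 arrays and the absence of detection calls limit what can be said of small differences and of dim genes.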
